A study of Mus musculus with 12 samples.

Results

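The regions described here are the open chromatin regions that lie over gene start sites, called promoter regions below. A region was taken as a member when it overlapped the window from 500 bp before to 500 bp after the start of any protein-coding transcript of the mouse genome mm9 and reached 3.6 CPM, the count scaled to the library total alone, in at least 3 of 12 libraries. By this rule 14125 of 69957 tested regions were promoter regions, which is 20.2% of the tested regions and 30.6% of their summed length, out of 118680 regions in the whole table. Another 1358 of the 15483 regions over start sites did not reach the CPM limit. At the limit itself, the third-highest CPM was 3.61 at a region of Rptor just inside and 3.59 at a region of Tcf7l2 just outside.

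ATAC-seq was performed on regulatory T cells (Treg) sorted by YFP from mice in which the Foxp3 promoter drives a fusion of YFP and Cre recombinase. WT Treg came from Foxp3-YFP-Cre mice and Ikzf1-cko Treg from Ikzf1-fl-Foxp3-YFP-Cre mice, so both genotypes carried the YFP-Cre allele and the floxed Ikzf1 alleles were removed in cells that express Foxp3. Treg of each genotype were assayed directly ex vivo or after 4 hr on plate-bound anti-CD3 with anti-CD28. The 4 groups are thus WT ex vivo, Ikzf1-cko ex vivo, WT stimulated and Ikzf1-cko stimulated, each with 3 libraries of 100000 cells from 3 biological replicates. Sorted cells were split between the ex vivo and the stimulated state, so libraries of the same genotype may share mice across states. The Ikzf1-cko mice are on a B6 background, and age and sex are not given for these libraries in the sources used here. Counted reads per library ran from 4808916 to 15355521, and each Ikzf1-cko library was deeper than each WT library.

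At an active promoter, nucleosomes are displaced from the DNA just upstream of the start site, and the transposase of ATAC-seq inserts readily there. Most mammalian promoters lie in CpG islands, stretches rich in G, C and CpG dinucleotides that are open in most cell types, whereas promoters poor in CpG tend to open with the activity of their gene in a given lineage. Distal enhancers carry most of the accessibility that differs between cell types. Ikaros, the zinc finger protein encoded by Ikzf1, binds DNA at sites with the core GGGAA, acts with chromatin remodeling complexes and represses as well as activates genes in lymphocytes.

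The 14125 promoter regions belonged to 13387 genes. Of these regions, 12627 (89.4%) covered the annotated start base and the other members lay beside it within 500 bp. Their median length was 1082 bp against 545 bp for the other tested regions, and their median GC content was 60% against 49.0%. The centre of a region lay at a median of 50 bp downstream of the start site. There were 1224 regions (8.67%) with start sites on both strands, and 1277 regions covered start sites of 2 genes and 8 regions those of 3 genes. By the sequence from 500 bp before to 500 bp after the start sites, 9945 promoter regions (70.4%) were rich in CpG, 2731 (19.3%) intermediate and 1449 (10.3%) poor in CpG.

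Shown here are the bases just upstream of the start sites of Ctnnd1, Eml6, Lrrc16a and Wisp1, which had the lowest adjusted p among the largest rises in Ikzf1-cko Treg ex vivo once regions matching mitochondrial DNA are set aside, and of Il7r, which differed between genotypes after stimulation. Each is read 5′ to 3′ on the strand of the gene from mm9, ends at the base before the start site, and leaves out annotated exons. Capitals mark GGGAA or its reverse complement TTCCC, the core of the Ikaros motif. The Ctnnd1 bases are chr2:84490923-84491122 on the minus strand, those of Eml6 chr11:29926034-29926233 on the minus strand, those of Lrrc16a chr13:24372665-24372864 on the minus strand, those of Wisp1 chr15:66722682-66722881 on the plus strand and those of Il7r chr15:9459632-9459777 on the minus strand.
Ctnnd1: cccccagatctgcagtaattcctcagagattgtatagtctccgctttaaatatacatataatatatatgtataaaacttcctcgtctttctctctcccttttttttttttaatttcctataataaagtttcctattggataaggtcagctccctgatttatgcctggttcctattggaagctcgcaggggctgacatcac
Eml6: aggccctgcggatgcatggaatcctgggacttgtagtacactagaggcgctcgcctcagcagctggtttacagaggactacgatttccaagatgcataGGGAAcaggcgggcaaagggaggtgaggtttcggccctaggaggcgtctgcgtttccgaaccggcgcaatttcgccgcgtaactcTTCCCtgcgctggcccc
Lrrc16a: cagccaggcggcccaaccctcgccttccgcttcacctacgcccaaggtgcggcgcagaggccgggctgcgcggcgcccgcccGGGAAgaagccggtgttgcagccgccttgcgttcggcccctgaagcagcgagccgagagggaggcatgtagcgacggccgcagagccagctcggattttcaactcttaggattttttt
Wisp1: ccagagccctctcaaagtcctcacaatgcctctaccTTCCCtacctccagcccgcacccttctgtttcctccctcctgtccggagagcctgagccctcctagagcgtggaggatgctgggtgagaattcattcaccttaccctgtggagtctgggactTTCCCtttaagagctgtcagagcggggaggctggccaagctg
Il7r: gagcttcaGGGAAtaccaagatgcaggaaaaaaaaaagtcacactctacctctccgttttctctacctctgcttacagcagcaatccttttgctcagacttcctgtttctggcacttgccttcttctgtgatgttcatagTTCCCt
The Ctnnd1 stretch held no GGGAA core, had a GC content of 37.5% and 3 CpG dinucleotides. Eml6 held 2 cores in a stretch of 59.5% GC with 15 CpG, and Lrrc16a 1 core in a stretch of 67.0% GC with 22 CpG. Wisp1 held 2 cores at 58.5% GC and 4 CpG, and the 146 bases of Il7r held 2 cores at 44.5% GC with 1 CpG. Such a match is a description of letters. Within the 300 bp window at the region centre, GGGAA on either strand was present in 61.4% of all promoter regions and in 58.8% of the other regions.

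Promoter regions of Ikzf1 were examined first, since Ikzf1 is the targeted gene. Ikzf1, on chromosome 11, had 3 promoter regions, and the extent of the deletion is not given in the sources used here, so they cannot serve as a check of the labels. At the region over the first start sites (chr11:11584683-11586451, rich in CpG), the level was 17.6, 19.8 and 20.1 FPKM in WT ex vivo and 20, 19.8 and 18.2 FPKM in Ikzf1-cko ex vivo, where FPKM is the count scaled to region length in kb and to library total. After stimulation it was 16.4, 18.7 and 16.9 FPKM in WT and 21.0, 20.8 and 24.2 FPKM in Ikzf1-cko. The ex vivo libraries overlapped between genotypes and the stimulated libraries did not. The log2 fold change between genotypes was 0.00 ± 0.09 (SE; adjusted p = 0.98) ex vivo and 0.35 ± 0.10 (adjusted p = 0.0034) in stimulated Treg, by the quasi-likelihood test of edgeR, adjusted by the Benjamini-Hochberg method over all 69957 regions, as for each fold change below. The other 2 Ikzf1 regions gave ex vivo values of 0.16 and 0.04 and stimulated values of 0.26 (adjusted p = 0.21) and 0.46 (adjusted p = 0.0023).

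Promoter regions held a larger share of the counted reads in Ikzf1-cko Treg than in WT Treg. In WT ex vivo the share was 44.3%, 44.4% and 47.0% (45.2% ± 1.52, SD, n = 3), and in Ikzf1-cko ex vivo 48.9%, 49.5% and 49.0% (49.1% ± 0.332). In WT stimulated it was 40.9%, 42.5% and 41.8% (41.8% ± 0.783), and in Ikzf1-cko stimulated 49.1%, 49.5% and 51.1% (49.9% ± 1.05). The WT libraries did not overlap with the Ikzf1-cko libraries in either state, nor the ex vivo with the stimulated WT libraries. With genotypes permuted within each state, the mean difference of 6.05 percentage points gave p = 0.005 in a two-sided exact permutation test, the smallest p of its 400 arrangements, and 0.03 after Benjamini-Hochberg adjustment over 6 tests. The test permutes each state separately, although libraries of the 2 states may share mice, so its p may be too small. With shared mice as units, 3 against 3, no exact p below 0.1 could arise. The adjusted value was 0.06 when any 1 of the 3 Ikzf1-cko ex vivo libraries was left out.

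Taken singly, the difference between genotypes was 3.94 points ex vivo and 8.15 points after stimulation, each with an exact permutation p = 0.1, which is the smallest that 3 against 3 libraries allow (adjusted p = 0.15). Stimulation moved the share by -3.44 points in WT (exact permutation p = 0.1, adjusted 0.15) and by 0.768 points in Ikzf1-cko (exact p = 0.2, adjusted 0.2). Because a share is relative, more reads on promoters and fewer reads on other regions cannot be told apart. Median promoter levels were close together, at 20.9, 22.5, 20.8 and 24.0 FPKM as means over the libraries of WT ex vivo, Ikzf1-cko ex vivo, WT stimulated and Ikzf1-cko stimulated. Over the other tested regions the same medians were 9.19, 8.08, 11.1 and 8.08 FPKM. The ratio of the median promoter to the median other region was 2.27 ± 0.176 (SD, n = 3) in WT ex vivo, 2.78 ± 0.085 in Ikzf1-cko ex vivo, 1.87 ± 0.129 in WT stimulated and 2.98 ± 0.171 in Ikzf1-cko stimulated. Depth moved with genotype in the same way, and its part in the share was not tested.

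**Figure D1:**
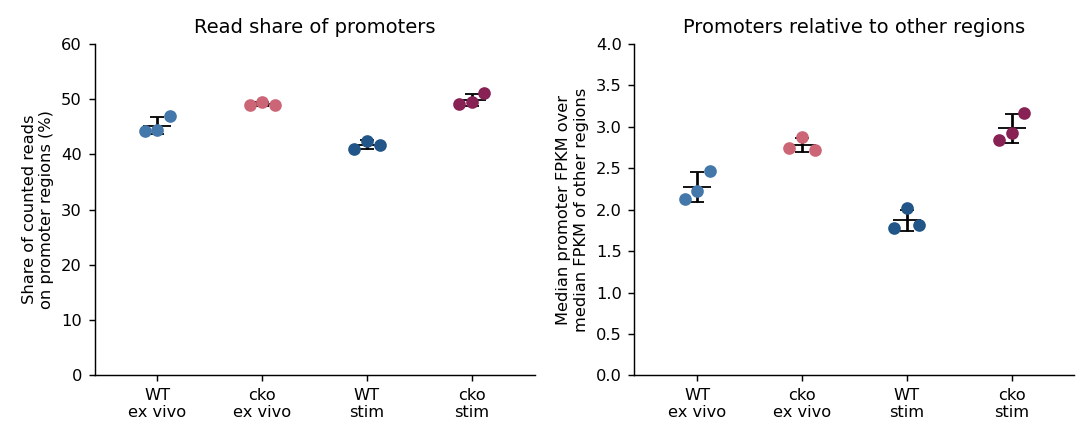
Left, share of counted reads on the 14125 promoter regions (percent) in each library. Right, median FPKM of promoter regions over the median of the other tested regions. Points are libraries, bars the mean and SD of 3 libraries of a group. WT stimulated libraries lie lowest in both, between 40.9% and 42.5% on the left.

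The levels across promoters were alike in all libraries. Spearman's rho across the 14125 promoter regions, which are not independent replicates, was 0.979 to 0.997 between libraries of a group and 0.929 to 0.988 between libraries of different groups. The lowest values were those between WT stimulated and Ikzf1-cko ex vivo libraries (0.929 to 0.956). On the first principal component, with 46.4% of the variance, WT stimulated libraries lay between -134.0 and -110.0 and the 9 others between -4.52 and 91.5. Promoters with the highest mean level included those of Qdpr, a dihydropteridine reductase, at 236.0 FPKM, of Kbtbd3 and Aasdhppt at 235.0 FPKM and of Mon1b at 228.0 FPKM. The predicted genes Gm10800 (296.0 FPKM) and Gm10801 (235.0 FPKM) also stood among these 5. Their regions had 35.1% and 34.4% GC, against a median of 60% over promoter regions. Between genotypes ex vivo they were at -0.94 and -0.98 on the log2 scale. The source of their high level was not tested.

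Few promoter regions differed between genotypes ex vivo by the thresholds of an adjusted p under 0.05 and a log2 fold change beyond 1 in size. There were 39 higher in Ikzf1-cko Treg, 0.276% of promoter regions, where 0.588% of all tested regions were called in that direction. Lower in Ikzf1-cko were 138, or 0.977% of promoter regions, against 4.04% of all tested regions. Of the 138, 71 had passed the CPM limit only through WT stimulated libraries and 9 only through WT ex vivo libraries, a way of passing that favours a lower value in Ikzf1-cko for the latter kind. Among the 13301 promoter regions that passed without the stimulated WT libraries, an alternative chosen after seeing the data, 39 were higher and 67 lower. By the adjusted p alone, 2250 promoter regions were higher and 835 lower, at a background of 8.78% and 12.7% of tested regions. The median log2 fold change was 0.08 over promoter regions and -0.22 over the other regions.

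The split between higher and lower depended on the scaling and on the CPM limit. With the limit in all 12 libraries 25 were higher and 11 lower among 11950 promoter regions. With TMM factors in place of library totals 59 were higher and 71 lower, with DESeq2 53 and 76, and after a loess correction for GC content 66 and 86. After loess normalization against abundance 51 were higher and 36 lower. A fit on promoter regions alone, with promoter reads as totals, gave 24 and 228 and moved the promoter median to -0.04. That fit gave 772 higher and 1278 lower by adjusted p alone, against 4120 and 476 with TMM factors. Loess normalization against abundance gave 894 and 817 by the same measure. TMM moved the median of promoter regions to 0.20 and that of all tested regions from -0.13 to -0.02. Without WT ex vivo replicate 1, 44 were higher and 62 lower. Leaving out Ikzf1-cko ex vivo replicate 3 gave 434 calls and WT ex vivo replicate 3 gave 328, whereas leaving out WT ex vivo replicate 1 or Ikzf1-cko ex vivo replicate 2 gave 106, against 177 with all libraries.

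Among called promoters whose libraries did not overlap between the groups compared, the rule for the largest changes between genotypes or states, the rises ex vivo were led, apart from a pair of regions matching mitochondrial DNA, by Ctnnd1 (chr2:84490559-84491260), which encodes a catenin, a partner of cadherins at the cell membrane. Its promoter was at 6.58, 5.10 and 3.31 FPKM in WT ex vivo and at 26.3, 21.8 and 20.9 FPKM in Ikzf1-cko ex vivo, and at 4.00, 2.86 and 3.85 FPKM in WT stimulated and 18.4, 18.6 and 17.3 FPKM in Ikzf1-cko stimulated. WT and Ikzf1-cko libraries did not overlap in either state. The log2 fold change was 2.27 ± 0.18 (SE) ex vivo, with an adjusted p of 3.6e-10, and 2.33 ± 0.22 stimulated, with 3.9e-09. Neither stimulation response of this promoter was called, at -0.41 in WT and -0.36 in Ikzf1-cko.

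Eml6 (chr11:29925610-29926499), whose product belongs to a family of microtubule-associated proteins, was at 9.94, 14.9 and 13.1 FPKM in WT ex vivo and 34.1, 38.3 and 35.8 FPKM in Ikzf1-cko ex vivo, with no overlap. Its log2 fold change was 1.48 ± 0.12 ex vivo (adjusted p = 6.2e-10) and 1.56 ± 0.14 stimulated (1.3e-09). Lrrc16a, which encodes a regulator of actin filament capping, rose from 9.49, 7.47 and 7.56 FPKM to 20.8, 21.9 and 22.1 FPKM ex vivo (log2 fold change 1.42 ± 0.12), and its value was 1.27 after stimulation. Wisp1, a secreted protein induced by Wnt signaling, was at 7.97, 12 and 10.6 FPKM in WT ex vivo and at 28.8, 28.1 and 23.2 FPKM in Ikzf1-cko ex vivo (1.36 ± 0.13), and its stimulated difference was 1.09 ± 0.15. In a fit on promoter regions alone or after loess normalization against abundance the stimulated difference of Wisp1 was 0.83 and 0.88, below the fold limit. These 4 promoters did not overlap between genotypes ex vivo.

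The region near the start of Nod2, an intracellular sensor of bacterial cell wall fragments, had 8.75, 10.9 and 7.63 FPKM in WT ex vivo and 23.5, 24.5 and 23.4 FPKM in Ikzf1-cko ex vivo (1.39 ± 0.15). Fetub, a secreted protease inhibitor of the cystatin superfamily, completed the 8 largest rises at 1.37 ± 0.26 and passed the CPM limit only through Ikzf1-cko ex vivo libraries. The remaining 2 of the 8 were both at the predicted gene Gm10222 on chromosome 1, with log2 fold changes of 3.33 and 2.32. They matched the mitochondrial genome at 99.6% and 99.8% identity, so reads of the nuclear copy and of mitochondrial DNA cannot be told apart there.

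The 8 promoters with the largest falls ex vivo were weak, and 7 of them passed the CPM limit only through WT stimulated libraries. They belonged to 4930572O03Rik, Gm10354, Fscn2, Dok5, Gprc5c, Lrrc38 and Epha5, and the eighth, of Chi3l7, passed only through WT ex vivo libraries. As an example, Dok5, an adaptor of receptor tyrosine kinases, had 6.39, 5.93 and 4.03 FPKM in WT ex vivo and 0.846, 1.99 and 2.22 FPKM in Ikzf1-cko ex vivo, which is 23, 31 and 24 reads against 9, 19 and 18. Its log2 fold change was -1.69 ± 0.33 (adjusted p = 0.0004). The regions of 4930572O03Rik and Gm10354 have near-identical copies among the tested regions, so their reads may be split between copies. The calls of Fscn2, Gprc5c, 4930572O03Rik and Chi3l7 were lost when WT ex vivo replicate 2 was left out.

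**Figure D2:**
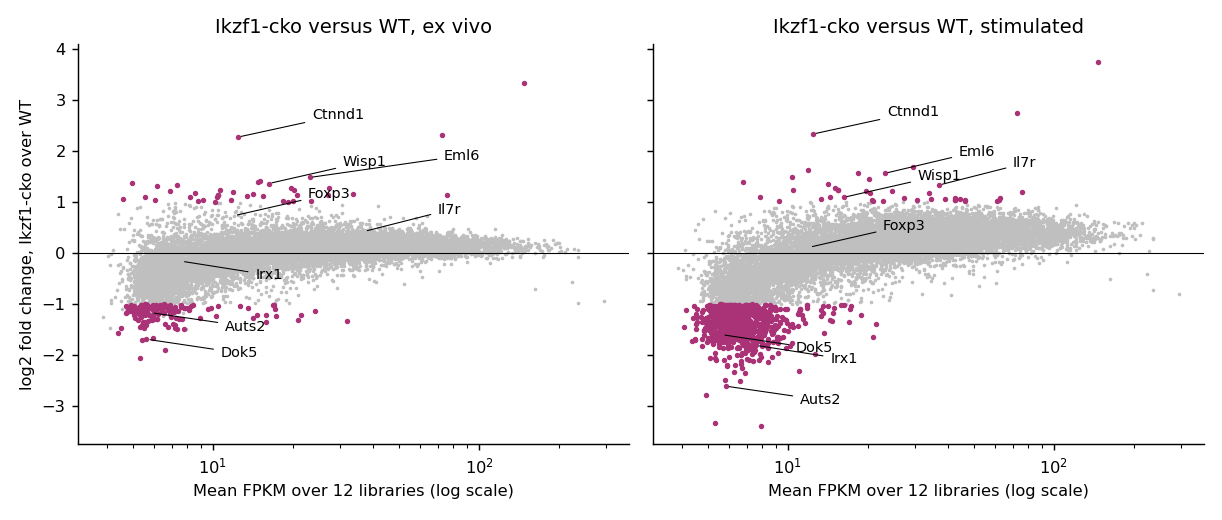
Log2 fold change of Ikzf1-cko over WT for each of the 14125 promoter regions against its mean FPKM over 12 libraries (log scale), ex vivo on the left and stimulated on the right. Purple points passed both thresholds. The 889 falls in stimulated Treg lie at the weak end, and none of them at or above the median level of promoter regions, 22.1 FPKM.

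After stimulation the genotypes differed at more promoters, nearly all weak ones that were lower in Ikzf1-cko. There were 42 promoter regions higher in Ikzf1-cko (0.297%, background 1.16% of tested regions) and 889 lower (6.29%, background 20.2%). The 889 had a median level of 12 FPKM in WT stimulated and of 3.44 to 5.3 FPKM in the other 3 groups, and 484 of them were among the 824 promoter regions that passed the CPM limit only through WT stimulated libraries, which favours this direction. Without members of that kind, 42 were higher and 405 lower. With a CPM limit in all 12 libraries, 33 were higher and 117 lower among 11950 promoter regions. A loess correction for GC content gave 397 higher and 647 lower. By the adjusted p alone, 5773 promoter regions were higher and 2214 lower, with 20.4% and 30.7% as background. This split turned with the scaling, to 2391 higher and 4312 lower with promoter regions alone and 1346 and 3295 after loess normalization against abundance. It was 6380 and 1913 with TMM factors and 7816 and 1595 after the GC correction. The median log2 fold change was 0.17 for promoter regions and -0.21 for the others, and it was -0.09 for promoter regions when these were fitted alone.

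Among the 42 rises, Il7r (chr15:9459275-9459777), the alpha chain of the interleukin-7 receptor, had 16.4, 18.5 and 17.4 FPKM in WT stimulated and 44.2, 42.3 and 45.3 FPKM in Ikzf1-cko stimulated. The log2 fold change was 1.33 ± 0.15 (adjusted p = 6.6e-08) and the libraries did not overlap. Ex vivo, its levels were 32.9, 36.6 and 40.5 FPKM in WT and 56.3, 52.0 and 39.9 FPKM in Ikzf1-cko, which overlap, with a log2 fold change of 0.42. Stim2, a calcium sensor of the endoplasmic reticulum, had 8.4, 9.04 and 8.39 FPKM in WT stimulated and 24.0, 26.8 and 25.9 FPKM in Ikzf1-cko stimulated (1.57 ± 0.16, adjusted p = 1.5e-08). The region of the retinol dehydrogenase genes Rdh1 and Rdh9 had 5.35, 5.91 and 5.04 FPKM against 17.3, 18.5 and 14.8 FPKM (1.62 ± 0.22). Stim2 and Rdh1/Rdh9 were also higher ex vivo, by 1.01 and 1.20. Gm13283 (1.68) and Gm4951 (1.49) were among the largest rises too, and both have near-identical copies among the tested regions. Gbp5, an interferon-induced GTPase, had 12.1, 16.2 and 15.5 FPKM in WT stimulated and 26.4, 30.2 and 31.6 FPKM in Ikzf1-cko stimulated (1.02 ± 0.14), a value that fell below the fold limit without WT stimulated replicate 1 (0.90), without Ikzf1-cko stimulated replicate 3 (0.97) and under 3 other scalings.

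The 8 largest falls after stimulation passed the CPM limit only through WT stimulated libraries. They were at Speer4d, with 2 regions, 4930572O03Rik, Auts2, Gm10354, Ptprg, Csmd1 and Ccdc129, and 1 of the Speer4d regions has 2 near-identical copies among the tested regions. Auts2, a gene known from neuronal development, had 5.22, 5.51 and 1.89 FPKM in WT ex vivo, 1.18, 1.71 and 2.63 in Ikzf1-cko ex vivo, 15.8, 9.58 and 19.2 in WT stimulated and 3.92, 1.84 and 1.58 in Ikzf1-cko stimulated. In reads this is 53, 29 and 51 in WT stimulated and 20, 10 and 10 in Ikzf1-cko stimulated. Its log2 fold change was -2.61 ± 0.40 (adjusted p = 6.2e-06). For Ptprg the value went from -2.49 to -0.22, and for Csmd1 from -2.35 to -0.69, after loess normalization against abundance.

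The ex vivo and stimulated comparisons of genotypes share no library, but may share mice, and are not taken as independent. Of the 39 promoter regions higher ex vivo, 16 were also called higher after stimulation, which is 41.0% of the ex vivo list and 38.1% of the stimulated one, against 0.297% of all promoter regions. Of the 138 lower ex vivo, 90 were called lower after stimulation, 65.2% of the ex vivo and 10.1% of the stimulated list, against 6.29% of all promoter regions. In stimulated Treg, 37 of the 39 and 138 of the 138 had the same sign as ex vivo, with median log2 fold changes of 0.85 and -1.10. Of the 138, 71 passed the CPM limit only through WT stimulated libraries, which favours a lower value in stimulated Ikzf1-cko Treg. Their sign and their overlap are thus partly set by that limit and are no support. Of all 824 promoter regions that passed in this way, 484 were called lower after stimulation.

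Stimulation of WT Treg for 4 hr raised 803 promoter regions (5.68%) where 17.7% of all tested regions rose, and lowered 80 (0.566%) where 2.32% fell. With the adjusted p alone the 2 directions were near equal, at 3435 promoter regions higher (24.3%, background 26.9%) and 3594 lower (25.4%, background 20.7%). This balance depended on the scaling, with 1370 higher and 6272 lower after the GC correction and 5448 and 1377 after loess normalization against abundance. Promoter regions alone gave 4880 and 2642, and TMM factors 3178 and 3395. The 803 were weak, with medians of 4.82 FPKM ex vivo and 12 FPKM stimulated in WT, and 476 of them had passed the CPM limit only through WT stimulated libraries. Without members of that kind, 327 rose and 80 fell. Under the CPM limit in all 12 libraries, 63 rose and 62 fell. The 80 that fell were strong, at 39.7 FPKM ex vivo and 16.9 FPKM stimulated in WT, and 55 of them lay at or above the median level of promoter regions. After a loess correction for GC content, 446 rose and 296 fell. The median log2 fold change was 0.00 over promoter regions and 0.06 over the others.

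Sytl2, a protein of secretory vesicle transport, fell from 75.8, 67.5 and 71.4 FPKM in WT ex vivo to 20.8, 22.5 and 22.9 FPKM in WT stimulated (log2 fold change -1.69 ± 0.16, adjusted p = 1e-09). Clk1, a kinase of splicing factors, fell from 13.9, 19.8 and 20.7 to 4.99, 8.87 and 3.13 FPKM (-1.68 ± 0.25), and A830010M20Rik from 45.5, 44.1 and 50.3 to 15.4, 13.1 and 17.6 FPKM (-1.61 ± 0.15). Tctex1d1 fell by 1.54 and Aldh9a1 by 1.78 on the log2 scale. None of these 5 promoters overlapped between states in WT. The regions of Sytl2, Clk1, Tctex1d1 and Aldh9a1 lay beside the start base, 327 to 446 bp from it. On stimulation of WT, 18.3% of promoter regions beside the start base were called, and 4.82% of those over it. The Aldh9a1 region has 7 near-identical copies among the tested regions and the Sytl2 region 1. The 5 largest rises, at Egflam, Ajap1, Gm6816, Speer4d and Kcnb2, ran from 2.24 to 2.44 and were all at regions that passed only through WT stimulated libraries. For Gm6816 and Kcnb2 the rise was 0.58 and 0.66 after loess normalization against abundance, past neither threshold.

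In Ikzf1-cko Treg, stimulation raised 163 promoter regions (1.15%, background 3.02%) and lowered 15 (0.106%, background 0.632%). Of the 163, 126 lay in the weakest 20% of tested regions, and 102 had passed only through WT stimulated and 13 only through Ikzf1-cko stimulated libraries. With the CPM limit in all 12 libraries 9 rose and 10 fell, and after the GC correction 86 rose and 23 fell. The total of 178 became 382 when replicate 3 of Ikzf1-cko ex vivo was left out, and 94 when replicate 1 of Ikzf1-cko stimulated was. Dnase1l3, a secreted endonuclease, fell from 72.3, 71.0 and 51.3 to 24.9, 21.9 and 21.5 FPKM (-1.52 ± 0.10, adjusted p = 7.1e-12), and in WT from 40.8, 43.2 and 44.9 to 14.7, 16.9 and 14.0 FPKM (-1.50 ± 0.14). Scin, an actin-severing protein, fell from 40.6, 40.5 and 37.1 to 10.3, 17.5 and 15.0 FPKM (-1.46 ± 0.14), and in WT by 1.42. Dnase1l3 and Scin were also higher in Ikzf1-cko than in WT ex vivo, by 0.59 and 1.02. The largest rises, at Agt, Fscn2, Dpep3, Col16a1 and Zfp444, were 1.85 to 2.21 and came from regions that passed only through stimulated libraries. Agt, the precursor of angiotensin, had 0.979, 0.546 and 1.29 FPKM ex vivo and 6.11, 4.02 and 3.11 FPKM stimulated.

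**Figure D3:**
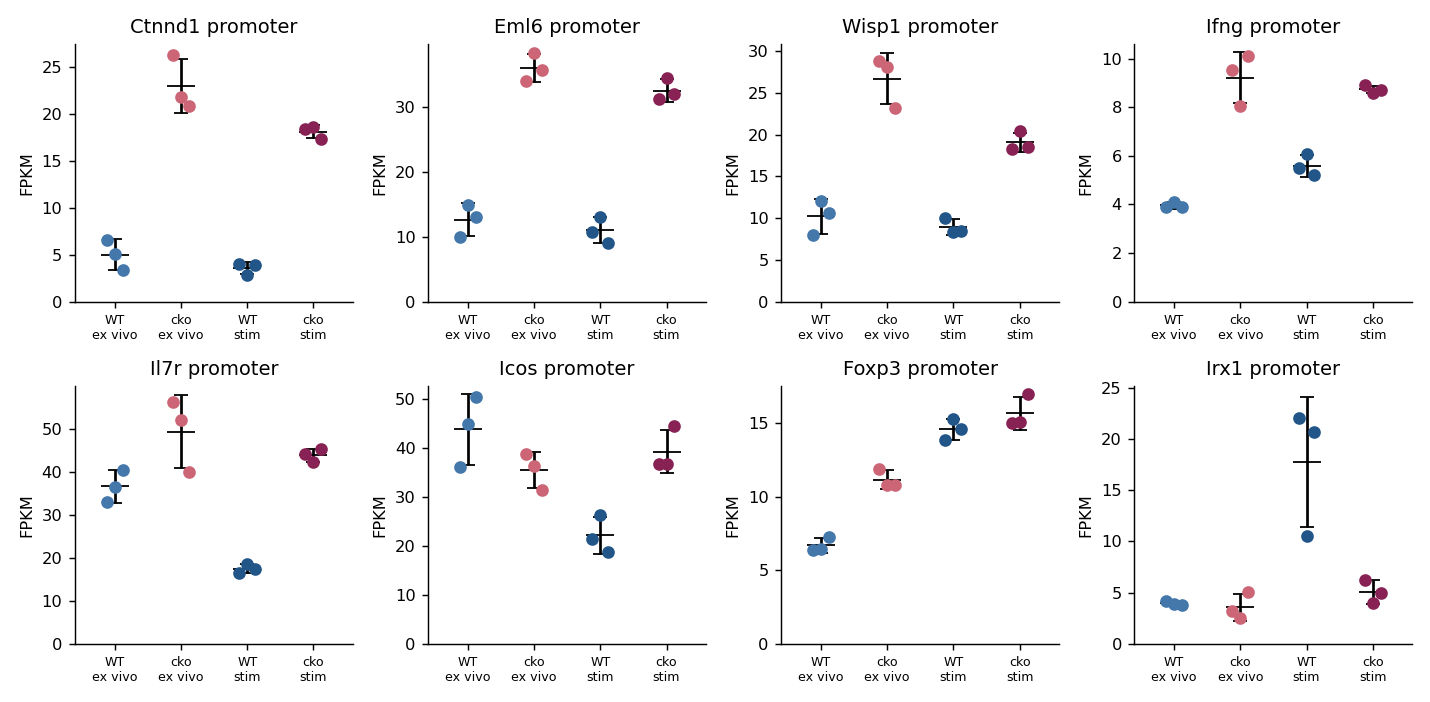
FPKM of 8 promoters in each library of WT and Ikzf1-cko (cko) Treg, ex vivo and stimulated (stim). Points are libraries, bars the mean and SD of 3 libraries. Ctnnd1, Eml6 and Wisp1 are higher in each Ikzf1-cko library than in each WT library, Il7r and Icos are low in WT stimulated alone, and Irx1 is high in WT stimulated alone.

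Median changes differed by promoter level, in part through the CPM limit. When all tested regions were put into 5 bins of equal size by mean FPKM, 7.77% of promoter regions fell in the weakest bin (3.32 to 6.44 FPKM) and 52.7% in the strongest (20.9 to 640.0 FPKM), against 23.1% and 11.7% of the other regions. Within the strongest bin, 0.161% of promoter regions and 1.04% of the others were called between genotypes ex vivo, 0.323% and 4.95% in stimulated Treg, and 0.860% and 13.5% on stimulation of WT. Within the weakest bin the pairs were 7.38% and 9.99%, 40.7% and 58.9%, and 42.0% and 57.6%. The median log2 fold change of promoter regions went from -0.48 in the weakest to 0.14 in the strongest bin between genotypes ex vivo, and from -0.83 to 0.33 in stimulated Treg. For stimulation of WT it went from 0.89 to -0.17, and for stimulation of Ikzf1-cko from 0.47 to 0.03. Of the 1097 promoter regions in the weakest bin, 420 passed the CPM limit only through WT stimulated libraries, so the direction of their values is partly set by that limit. Without them, an alternative chosen after seeing the data, the medians of the weakest bin were -0.42 and -0.67 between genotypes and 0.72 and 0.40 with stimulation of WT and of Ikzf1-cko. These bins use the mean over all 12 libraries, and the medians of other regions ran the same way, from 1.21 to -0.58 on stimulation of WT.

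**Figure D4:**
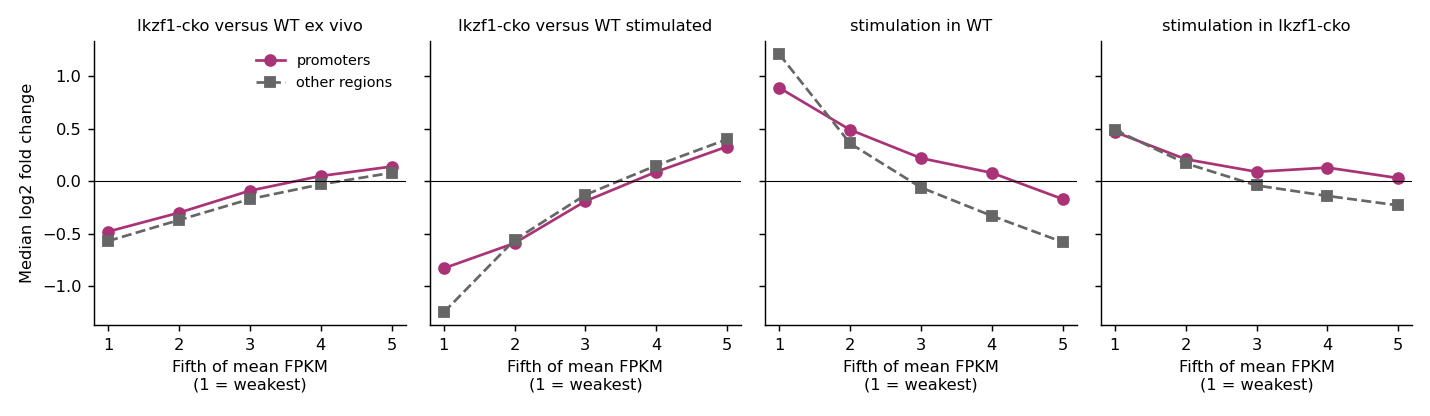
Median log2 fold change in 5 bins of mean FPKM (bin 1 weakest, bin 5 strongest, each with 20% of tested regions) for promoter regions and other regions in the 4 comparisons. Genotype medians run from negative to positive with level and the WT stimulation medians run from 0.89 to -0.17 for promoter regions, where 420 of the 1097 in bin 1 passed the CPM limit only through WT stimulated libraries.

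The test of the difference between the stimulation responses, Ikzf1-cko minus WT, called 15 promoter regions with a higher response in Ikzf1-cko (0.106%, background 0.579%) and 86 with a lower one (0.609%, background 1.4%). With the adjusted p alone the direction was reversed, at 1298 promoter regions with a higher response (9.19%, background 5.66%) and 191 with a lower one (1.35%, background 1.82%). That reversal depended on the scaling, with 199 higher and 430 lower after loess normalization against abundance. Counts were 592 and 398 with promoter regions alone, 398 and 217 with TMM factors and 1390 and 116 after the GC correction. The total of 101 at both thresholds moved with the libraries, from 26 without Ikzf1-cko stimulated replicate 3 to 223 without Ikzf1-cko stimulated replicate 1, and with DESeq2 it was 33. Icos (chr1:61034467-61034897), a costimulatory receptor of T cells, had 36.2, 44.9 and 50.5 FPKM in WT ex vivo and 21.5, 26.3 and 18.8 FPKM in WT stimulated. In Ikzf1-cko it had 38.8, 36.3 and 31.5 FPKM ex vivo and 36.7, 36.8 and 44.5 FPKM stimulated. The states did not overlap in WT and overlapped in Ikzf1-cko, and the responses, -1.0 and 0.15, differed by 1.15 ± 0.20 on the log2 scale (adjusted p = 0.00073). After loess normalization against abundance the Icos difference was 0.97, below the fold limit.

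Cxcr6, a chemokine receptor, went from 33.5, 32.0 and 28.3 to 11.5, 17.7 and 8.65 FPKM in WT and from 21.5, 18.9 and 17.4 to 17.6, 20 and 18.7 FPKM in Ikzf1-cko, a difference of 1.24 ± 0.24 (adjusted p = 0.0015). P2ry12, an ADP receptor, and Gm9875 followed with 1.18 and 1.11. The Il7r promoter fell by 1.09 in WT (-0.84 to -0.97, within the fold limit, under 3 other scalings) and had a change of -0.18 in Ikzf1-cko, a difference of 0.91 ± 0.19 (adjusted p = 0.0036) that did not reach the fold limit. Of those with a lower response in Ikzf1-cko, Irx1, a homeobox gene, had 4.18, 3.91 and 3.79 FPKM in WT ex vivo and 22.1, 10.5 and 20.7 FPKM in WT stimulated, while Ikzf1-cko libraries ran from 2.48 to 5.04 ex vivo and from 3.95 to 6.23 stimulated. Its difference was -1.65 ± 0.40 (adjusted p = 0.0095), and its region passed only through WT stimulated libraries. Klrg1, an inhibitory lectin receptor, went from 4.69, 7.17 and 4.56 to 6.27, 10.4 and 6.75 FPKM in WT, which overlap, and from 13.6, 12.5 and 11.5 to 8.36, 8.95 and 8.03 FPKM in Ikzf1-cko, which do not. The responses differed by -1.07 ± 0.29 (adjusted p = 0.018), or -0.92 (0.092) without WT ex vivo replicate 3 and -0.81 (0.087) without WT stimulated replicate 2.

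Gene lists put these values in the setting of Treg biology, with each gene represented by its strongest promoter region. The median level was 30.9 FPKM in the Treg identity list, 46.3 FPKM in the immediate early list and 22.2 FPKM in the interferon list. In the strongest bin of promoter regions, from 20.9 FPKM, 25.4% were higher in Ikzf1-cko ex vivo and 67.7% stimulated by adjusted p alone. The medians of that bin were 0.14 and 0.33. The part of level in the list values was not tested. Shares of promoter regions higher or lower by adjusted p alone depended on the scaling, as given above. The list counts by adjusted p alone below hold for library totals. Of 25 genes of Treg identity and suppression, 22 had a promoter region. Between genotypes ex vivo 1 was called higher and 1 lower, and by adjusted p alone 8 were higher and 2 lower, where 15.9% of all promoter regions were higher and 5.91% lower. The list median was 0.17 against 0.08 for all promoter regions. After stimulation none was called at both thresholds, while 14 were higher and 2 lower by adjusted p alone, against 40.9% and 15.7% of all promoter regions (median 0.40 against 0.17). On stimulation of WT 2 rose and 1 fell (median -0.37 against 0.00), with 12 lower by adjusted p alone, against 25.4% of all promoter regions.

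Klrg1 was the member called higher ex vivo, at 1.18 ± 0.19. Prf1, perforin, was the one called lower, with 8.67, 7.88 and 7.24 FPKM in WT and 3.58, 3.54 and 3.85 FPKM in Ikzf1-cko (-1.10 ± 0.16, adjusted p = 1.3e-05). Its value was -0.99 with TMM factors and -0.91 after the GC correction. In WT, stimulation raised Lag3, an inhibitory receptor, by 1.13 and Ebi3, a subunit of heterodimeric cytokines, by 1.05, and lowered Tnfrsf9, which encodes a costimulatory receptor of the TNF receptor family (log2 fold change -1.18). After the GC correction Lag3 was at 0.83 and Ebi3 at 0.69, below the fold limit, and so was Tnfrsf9 at -0.93 after loess normalization against abundance. Tnfrsf9 had 42.5, 39.0 and 42.8 FPKM ex vivo and 16.4, 22.6 and 15.5 FPKM stimulated. Ctla4, an inhibitory receptor, was 0.69 higher in stimulated Ikzf1-cko Treg (adjusted p = 2.9e-05) and fell by 0.86 on stimulation of WT (2e-06), both within the fold limit.

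Foxp3, the factor that defines Treg, had 2 promoter regions on the X chromosome, and the Cre allele of both genotypes sits at this gene. At the upstream one (chrX:7156429-7156941), WT had 6.38, 6.46 and 7.26 FPKM ex vivo and 13.9, 15.3 and 14.6 FPKM stimulated, and Ikzf1-cko had 11.9, 10.8 and 10.8 FPKM ex vivo and 15.0, 15.1 and 17.0 FPKM stimulated. WT ex vivo libraries were below all others. The difference between genotypes was 0.73 ± 0.18 ex vivo (adjusted p = 0.0051) and 0.11 ± 0.17 stimulated (0.60), and the response to stimulation 1.11 ± 0.20 in WT (6.4e-05) and 0.49 ± 0.15 in Ikzf1-cko (0.015). The test of the difference between the responses gave -0.62 ± 0.25 (adjusted p = 0.12). The downstream region (chrX:7163411-7163933) gave -0.20 ex vivo and 0.24 stimulated between genotypes, with adjusted p of 0.45 and 0.32. Its response to stimulation was 0.08 in WT (adjusted p = 0.77) and 0.52 in Ikzf1-cko (0.025), unlike that of the upstream region. The Treg identity list represents Foxp3 by the downstream region, so the upstream rise in WT is not among the rises counted there.

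Of 17 cytokine and Th1 genes, 10 had a promoter region, and Ifng, the type 1 cytokine interferon-gamma, was called between genotypes ex vivo. With the adjusted p alone, 3 were higher and 1 lower in each state, against 15.9% and 5.91% of all promoter regions ex vivo. In stimulated Treg those shares were 40.9% and 15.7%. List medians were 0.06 and 0.07, against 0.08 and 0.17. The lower one was Il12rb2, of the interleukin-12 receptor, at -0.72 ex vivo (adjusted p = 0.00054) and -0.82 stimulated (0.00015). Tbx21 and Eomes passed no threshold between genotypes. Ifng (chr10:117877677-117878516) had 3.89, 4.10 and 3.88 FPKM in WT ex vivo and 9.54, 8.05 and 10.1 FPKM in Ikzf1-cko ex vivo, and 5.51, 6.09 and 5.20 FPKM in WT stimulated against 8.91, 8.60 and 8.72 FPKM in Ikzf1-cko stimulated. Libraries of the genotypes did not overlap in either state. The log2 fold change was 1.21 ± 0.18 ex vivo (adjusted p = 1.4e-05), or 0.94 with all libraries thinned to the smallest, and 0.64 ± 0.19 stimulated (0.0049). Tnf rose on stimulation of WT from 10.0, 10.0 and 8.78 to 16.8, 25.2 and 26.5 FPKM (1.24 ± 0.23, and 0.87 after the GC correction). The 24 immediate early and TCR-induced genes all had a promoter region, and 1, Ier3, was called on stimulation of WT (1.03 ± 0.23, and 0.77 without WT stimulated replicate 2). In this list 11 were higher in Ikzf1-cko ex vivo by adjusted p alone and none lower, against 15.9% and 5.91% of all promoter regions, among them Egr1 at 0.36 and Junb at 0.26.

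The 12 naive-state and recirculation genes gave 1 rise after stimulation between genotypes and 1 fall on stimulation of WT, both Il7r. Ex vivo 1 of the 12 was higher by adjusted p alone, again Il7r, and 2 were lower, 1 of them Ccr7, a chemokine receptor that guides T cells into lymph nodes (-0.29, adjusted p = 0.016), with a list median of 0.11 against 0.08. Of 22 interferon response genes 19 had a promoter region, and 1, Gbp5, was called after stimulation, while 14 were higher by adjusted p alone and 1 lower, against 40.9% and 15.7% of all promoter regions (median 0.48 against 0.17). Of the 14 housekeeping genes 9 were higher by the same measure, and so were 67.7% of promoter regions in the strongest bin. Of 12 Wnt and catenin genes 11 had a region, of which Ctnnd1 and Wisp1 were called in both states. Ctnnb1, beta-catenin, was at 0.02 ex vivo and -0.07 stimulated (adjusted p = 0.92 and 0.60). The lists of 12 T cell markers, 17 effector Treg and lineage factors, 12 NF-kB genes and inhibitors, 11 Notch genes, 12 genes of activation metabolism, 14 housekeeping genes, 76 ribosomal protein genes and 37 proteasome genes had no member called between genotypes or on stimulation. The medians of the housekeeping genes between genotypes, 0.17 ex vivo and 0.44 stimulated, lay near those of the Treg identity list. Other Ikaros family genes, Ikzf3, Ikzf4 and Ikzf5, ranged from 0.06 to 0.14 ex vivo, and no region of Ikzf2 was a member.

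**Figure D5:**
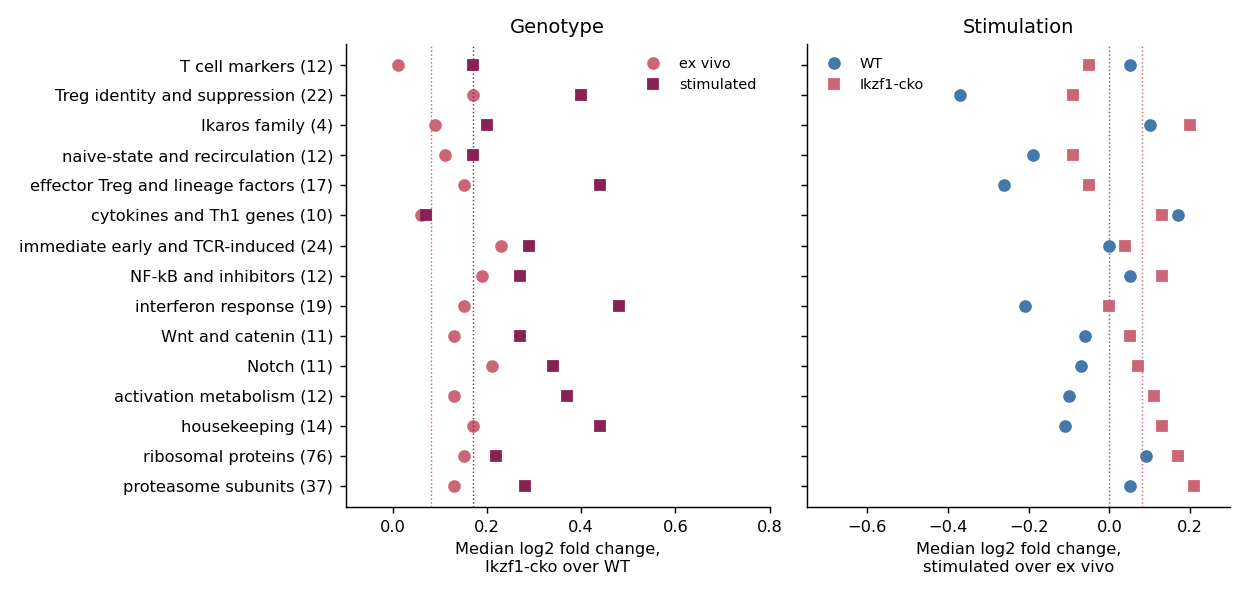
Median log2 fold change of the promoter regions of 15 gene lists (number of regions in parentheses) between genotypes on the left and with stimulation on the right. Dotted lines give the median over all 14125 promoter regions in the same comparison. The interferon, effector Treg, housekeeping and Treg identity lists lie between 0.40 and 0.48 in stimulated Treg, where all promoter regions have 0.17 and those of the strongest bin 0.33.

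Promoters of genes that mark other cells were largely outside the set. Of 6 B cell genes 2 had a promoter region, Cd79b and Ebf1, with Cd79a, Ms4a1 and Pax5 absent, and their summed level ran from 17.1 to 20 FPKM in WT ex vivo, 12.2 to 16.8 in Ikzf1-cko ex vivo, 21.4 to 26.5 in WT stimulated and 17.9 to 20.4 in Ikzf1-cko stimulated. Cd79b rose on stimulation of WT (1.21 ± 0.37, adjusted p = 0.0081) at a region that passed only through WT stimulated libraries, with 20 to 31 reads, and its value was 0.21 after loess normalization against abundance. Of 6 CD8 and NK genes Cd8b1 alone had a region, at 11.4 to 14.7 FPKM in WT ex vivo and 8.78 to 9.12 in Ikzf1-cko ex vivo, and 11 to 12.6 and 9.01 to 10.4 FPKM after stimulation (log2 fold change between genotypes -0.61 ex vivo, adjusted p = 0.0003). Of 8 myeloid genes Spi1 was not found in the annotation under that symbol, and of the other 7 Cd14 and Cebpa had a region. The summed levels of Cd14 and Cebpa were 20.3 to 21.5, 25.8 to 28.7, 19.5 to 20.1 and 24.8 to 26.5 FPKM in the same order of groups. None of 5 erythroid and 7 non-immune genes had a promoter region. The T cell markers Cd3d, Cd3e, Cd4 and Lck and 8 more all had a promoter region. The part of other cells in the results was not tested.

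The share of promoter regions called was larger for those poor in CpG than for those rich in CpG, a description with no test. Between genotypes ex vivo, 10 regions rich in CpG were higher and 41 lower (0.513% in all), 13 and 55 of intermediate regions (2.49%) and 16 and 42 of regions poor in CpG (4.00%). In stimulated Treg the shares called were 4.86%, 10.2% and 11.7%, on stimulation of WT 4.57%, 8.68% and 13.3%, and of Ikzf1-cko 0.704%, 1.87% and 3.93%. Levels went the other way, with library medians of 23.8 to 30.1 FPKM for regions rich in CpG and 11 to 12.5 FPKM for those poor in CpG. Of the 1224 regions with start sites on both strands, 1 was called between genotypes ex vivo (0.0817%) and 23 in stimulated Treg (1.88%). Over all promoter regions 1.25% and 6.59% were called. Of the 1498 regions beside the start base 3.6% were called ex vivo and 17.5% stimulated, and of the regions over it 0.974% and 5.30%.

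Motif letters differed in frequency between promoter regions and the others, in both directions. In the 300 bp window, GGGCGG (the core of SP1 sites) was present in 61.7% of promoter regions and 11.2% of the others, CCGGAAGT (ETS) in 4.86% and 0.797%, and GCGCATGC (NRF1) in 2.92% and 0.609%, each on either strand. CCAAT, the box bound by NFY, was present in 26.3% and 29.9%. The AP-1 letters TGACTCA or TGAGTCA were present in 3.31% and 12.5%, TGTGGTTT (RUNX) in 1.10% and 4.84%, GTAAACA (forkhead) in 1.71% and 4.30% and CTTTGAT (TCF) in 1.59% and 5.41%. AP-1 letters were in 21.2% of the 80 promoter regions that fell on stimulation of WT, against 3.31% of all promoter regions. GGGAA was in 82.1% of the 39 regions higher in Ikzf1-cko ex vivo and in 57.2% of the 138 lower ones, against 61.4% of all promoter regions. The median log2 fold change ex vivo was 0.08 for promoter regions with GGGAA in the window and 0.07 for those without it, and over their whole length 93.1% held it. These shares are descriptions.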

How the data were processed

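The authors aligned paired reads with Bowtie2, ran MACS2 on each replicate after duplicate removal, merged peaks found in several replicates into 1 set of regions and deposited a table of read counts per region (whole-number counts of de-duplicated reads, 12 libraries, 118680 regions, coordinates in mm9) and FPKM values that the authors computed from those counts. The labels give mm9 and the methods print a human build for the alignment. Versions of Bowtie2 and MACS2 are not given in the sources used here. Their normalization by background bins needs reads outside the regions and was not repeated. A further deposited table holds the authors' own fold changes, F scores, p and FDR of called regions and was not used. Of the regions, 200 lie on unplaced sequence and have no counts.

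Regions were kept at 3.6 CPM in at least 3 of 12 libraries and placed against 51733 protein-coding transcripts of 22378 genes of the mm9 annotation. Counts were fitted with edgeR 4.0.16 (R 4.3.3), quasi-likelihood with library totals and a mean for each of the 4 groups (prior df 24.4), and p-values were adjusted by Benjamini-Hochberg over all 69957 tested regions at a threshold of 0.05, with a log2 fold change beyond 1 for a call. The fit was tested on simulated data. Shares of reads were compared by two-sided exact permutation tests. CpG classes were set on the mm9 sequence from 500 bp before to 500 bp after each start: rich with a 500 bp window of observed/expected CpG over 0.75 and GC over 55%, poor with no window over 0.48, otherwise intermediate. Near-identical copies (at least 90% identity over at least 50% of the region) were searched with blastn 2.17.0, and 66 of 74 named regions had none. Alternatives were TMM factors and loess fits (span 0.3, limma 3.58.1), DESeq2 1.42.0, promoter regions alone, other CPM limits, start site windows of 100 and 1000 bp, a replicate block, the compared libraries alone, thinning and leaving out each library. Tables and figures used Python 3.11.15, NumPy 2.4.6, pandas 2.3.3, SciPy 1.17.1 and Matplotlib 3.10.9.

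Named promoters are the 8 largest changes each way between genotypes, the 5 each way with stimulation, and the 5 each way for the difference between responses, among called regions (for all but the last, with libraries that do not overlap), the 5 with the highest mean FPKM, called members of 21 gene lists, and those of Ikzf1 and Foxp3. Some items that this rule names are not reported here. Other genes were named after their values were seen. The members and lists were chosen with earlier results of these data known. Median reads per promoter region ran from 107 to 363 across libraries.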

Additional observations from a re-analysis of the deposited data

Results flagged for a closer look

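At 10 promoters named here the response to stimulation differed between Ikzf1-cko and WT Treg, by edgeR's test of the difference between the responses with adjustment over all tested regions. The response was higher in Ikzf1-cko at Cxcr6 (log2 difference 1.24), P2ry12 (1.18), Icos (1.15), Gm9875 (1.11) and 3110007F17Rik (1.10). It was lower at Itgb2l (-2.07), Slc6a2 (-1.77), Gas1 (-1.68), Irx1 (-1.65) and Klrg1 (-1.07). The calls of Gas1, Slc6a2, 3110007F17Rik and Klrg1 were each lost when any of several single libraries was left out, and that of Gas1 in 9 of the 12 such fits. With DESeq2 the adjusted p was 0.074 at Gas1, 0.099 at 3110007F17Rik and 0.071 at Klrg1. After loess normalization against abundance the difference was 0.97 at Icos and 0.89 at Gm9875, below the fold limit, and Gm9875 was at 0.97 in a fit on promoter regions alone. P2ry12 fell below the fold limit after the GC correction (0.93). The region of 3110007F17Rik has 1 near-identical copy among the tested regions. Itgb2l, Gas1 and Irx1 passed the CPM limit only through WT stimulated libraries.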

How the results depend on the processing

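Many named promoters were picked as the largest changes in these same data, so a kept sign is no independent support for them. No called value of a named promoter, and no difference in read share with a test, changed sign under any alternative run. Medians and splits did: the promoter median went from 0.08 to -0.04 ex vivo, from 0.17 to -0.09 stimulated and from 0.08 to -0.06 for the difference between responses with promoter regions alone, and from 0.08 to -0.08 on stimulation of Ikzf1-cko with the GC correction. Ex vivo, more promoter regions were called higher than lower after loess normalization against abundance (51 and 36) and with the CPM limit in all 12 libraries (25 and 11). Of 2273 values of named promoters under the alternatives, 2194 kept their side of both thresholds and 79 lost the call, and 67 of 96 such results kept direction and call throughout. Thinning to the smallest library and the set passing the CPM limit without WT stimulated libraries were chosen after seeing the data. The causes of the changes below were not tested unless the alternative itself leaves out regions or libraries.

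Called promoter regions numbered 177 between genotypes ex vivo, 931 stimulated, 883 on stimulation of WT, 178 of Ikzf1-cko and 101 for the difference between responses. With no CPM limit there were 280 ex vivo, 1359 on stimulation of WT and 382 of Ikzf1-cko, and with the limit in all 12 libraries all 5 became 36, 150, 125, 19 and 38. In the set without regions that needed WT stimulated libraries the first 4 were 106, 447, 407 and 75. Loess normalization against abundance gave 87 ex vivo and 516 stimulated, the GC correction 109 on stimulation of Ikzf1-cko, and DESeq2 33 for the difference between responses. Other moved splits, beside those in the text, were 3 and 128 (promoter regions alone) and 10 and 23 (DESeq2) for the difference between responses.

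Leaving out 1 library at a time gave 106 to 434 ex vivo, 771 to 1152 stimulated, 686 to 1031 on stimulation of WT, 94 to 382 on stimulation of Ikzf1-cko and 26 to 223 for the difference between responses. The last moved by over 1.5 times without WT ex vivo replicates 1 (160) and 3 (30), Ikzf1-cko ex vivo replicates 1 (221) and 3 (38), WT stimulated replicates 1 (30) and 2 (165) and Ikzf1-cko stimulated replicates 1 (223), 2 (51) and 3 (26). The genotype difference in the promoter share of reads ran from 5.75 to 6.49 percentage points, with an adjusted exact permutation p of 0.06 when any 1 of the Ikzf1-cko ex vivo libraries was left out.

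With the replicate number as a block, calls numbered 179, 928, 863, 170 and 89. Gas1 lost its call (adjusted p = 0.07). Deviations of libraries with the same number correlated at -0.34 to 0.32, and not every library matched best with its own number, so the numbers were not taken as a pairing. Start site windows of 100 or 1000 bp gave 31 and 105 or 45 and 169 promoter regions higher and lower ex vivo. Weak regions rested on few reads, 9 to 53 per library at the Auts2 region, which limits what could be detected there.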

Other observations

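Promoter regions on the X chromosome moved apart from those on autosomes. On stimulation of WT, the median log2 fold change of the 407 X-linked promoter regions was -0.30 and that of 13714 autosomal ones 0.02, and by adjusted p alone 8 X-linked regions were higher and 196 lower (48.2% lower, against 24.7% of autosomal ones). Between genotypes in stimulated Treg the medians were 0.41 and 0.16, and ex vivo 0.13 and 0.08. On stimulation of Ikzf1-cko they were -0.03 and 0.09. The X-linked share of promoter reads was 2.34%, 2.32% and 2.36% in WT ex vivo, 2.40%, 2.36% and 2.32% in Ikzf1-cko ex vivo, 1.99%, 1.94% and 2.02% in WT stimulated and 2.17%, 2.21% and 2.27% in Ikzf1-cko stimulated. Stimulated and ex vivo libraries did not overlap in either genotype, and the stimulated libraries of the genotypes did not overlap.

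Of 4 Y-linked genes 3 had a promoter region. Their summed level was 85.7 to 102.0 FPKM in WT ex vivo, 93.3 to 115.0 in Ikzf1-cko ex vivo, 56.4 to 61.1 in WT stimulated and 79.9 to 90.6 in Ikzf1-cko stimulated, with none called at both thresholds and all 3 lower by adjusted p alone on stimulation of WT. The cause of the sex-chromosome values was not tested.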
